A study of Arabidopsis thaliana with 22 samples.

Results

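The comparison described here set 2 RNA-seq libraries of the *ahl22* mutant against the 2 libraries of the wild type Col-0 that share its count table. It covered the genes of that table. The gene families described leave out *SAUR*, class III peroxidase and ribosomal protein genes, whose counts are given once below. Lists of genes by function or cell type were not filtered in that way, and the peroxidase gene *RCI3* is among the general root markers. These 4 libraries were chosen because they stand in 1 table, out of 12 distinct RNA libraries in the series, and the table holds 27416 genes, of which 19173 had enough reads to be tested. *ahl22* is a line of *Arabidopsis thaliana* with a T-DNA insertion in *AHL22* in the Col-0 background, so it stands for 1 allele, and no line with the gene put back was analysed here. Whole seedlings of both genotypes were collected 5 days old after growth under a cycle of 16 h light and 8 h dark. The labels name soil as the growth medium and the methods of the study name plates, so the medium is not certain. The other RNA libraries come from *frs7 frs12*, *hda15* and *ahl22 frs7 frs12* mutants and from another Col-0 pair that stands in the table of the triple mutant.

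AHL proteins carry an AT-hook, which binds the minor groove of AT-rich DNA, and a PPC domain through which they form complexes with each other and with other nuclear proteins. They are found at the nuclear matrix, the protein scaffold left after soluble chromatin is extracted, and AHL22 is known for its part in flowering time and hypocotyl elongation. A whole seedling at this age holds cotyledons, hypocotyl and root, and the root is where suberin, Casparian strips, root hairs and most nutrient uptake carriers are found. In bulk seedlings, fewer cells of a type and less RNA per cell cannot be told apart.

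*AHL22* itself (AT2G45430, chromosome 2) had 0.878 and 1.11 CPM (counts per 1e6 reads counted in genes) in the *ahl22* libraries, against 18.9 and 17.2 CPM in the Col-0 libraries. The groups did not overlap, and the log2 fold change was -4.18 ± 0.25 (SE; quasi-likelihood test of edgeR, adjusted p = 2.48e-17 after Benjamini-Hochberg correction across the genes tested). The same test stands behind every adjusted p below. In the other Col-0 pair the gene had 3.08 and 3.07 CPM, less than in the Col-0 pair of the *ahl22* table, and the log2 fold change of *ahl22* against that pair was -1.62 (edgeR, adjusted p = 0.0296).

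The 2 Col-0 pairs stood apart from each other across the transcriptome. Total counts ran from 12771163 to 14403139 over the 4 libraries of the comparison. Across genes, log2(CPM + 1) correlated at 0.993 between the *ahl22* libraries and at 0.992 between the Col-0 libraries of its table. Each *ahl22* library correlated at 0.92 to 0.924 with those Col-0 libraries but at 0.981 to 0.987 with the other Col-0 pair, and the Col-0 pairs correlated with each other at 0.923 to 0.935. Genes are not independent replicates, so these values are a description. The labels do not say how the pairs differ in growth or library preparation, and a difference between the pairs cannot be told apart from the genotype in the comparison. The CPM of the other pair are therefore given beside those of the named genes, and calls against it for most families and lists. Both Col-0 comparisons use the same *ahl22* libraries.

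Of the genes tested, 1355 (7.07%) were upregulated genes (UGs) and 2142 (11.2%) were downregulated genes (DGs), where a call needed an adjusted p under 0.05 and a log2 fold change beyond 1. The median log2 fold change over all genes tested was 0.02. Against the other Col-0 pair 69 genes (0.368%) were UGs and 73 (0.389%) were DGs, together 0.758% of 18743 genes tested there. In that comparison the UGs of the main comparison had a median log2 fold change of 0.18, against 1.28 in the main comparison, and 23 of them were called UGs again. The DGs had a median of -0.27 over the 1591 that could be tested, against -1.50, and 48 of them were called again. The other DGs had too few reads for a test there. In the main comparison their reads came mostly from the Col-0 libraries, so their calls follow in part from the filter on low counts. Among laccases, terpene synthases, suberin genes and iron deficiency genes too, fewer members could be tested against the other pair. With all 4 Col-0 libraries as 1 group, edgeR called 5 UGs and 0 DGs, while 126 genes above and 614 genes below a log2 fold change of 1 had an unadjusted p under 0.05. Among the families set aside, 25 of 55 *SAUR* genes were UGs, 38 of 56 class III peroxidase genes were DGs and 38 of 351 ribosomal protein genes were UGs. Wherever 0 UGs or 0 DGs are given below for a list or family in the main comparison, edgeR at an unadjusted p under 0.05 and DESeq2 at an adjusted p under 0.05 also gave 0 beyond the same fold.

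**Figure D1:**
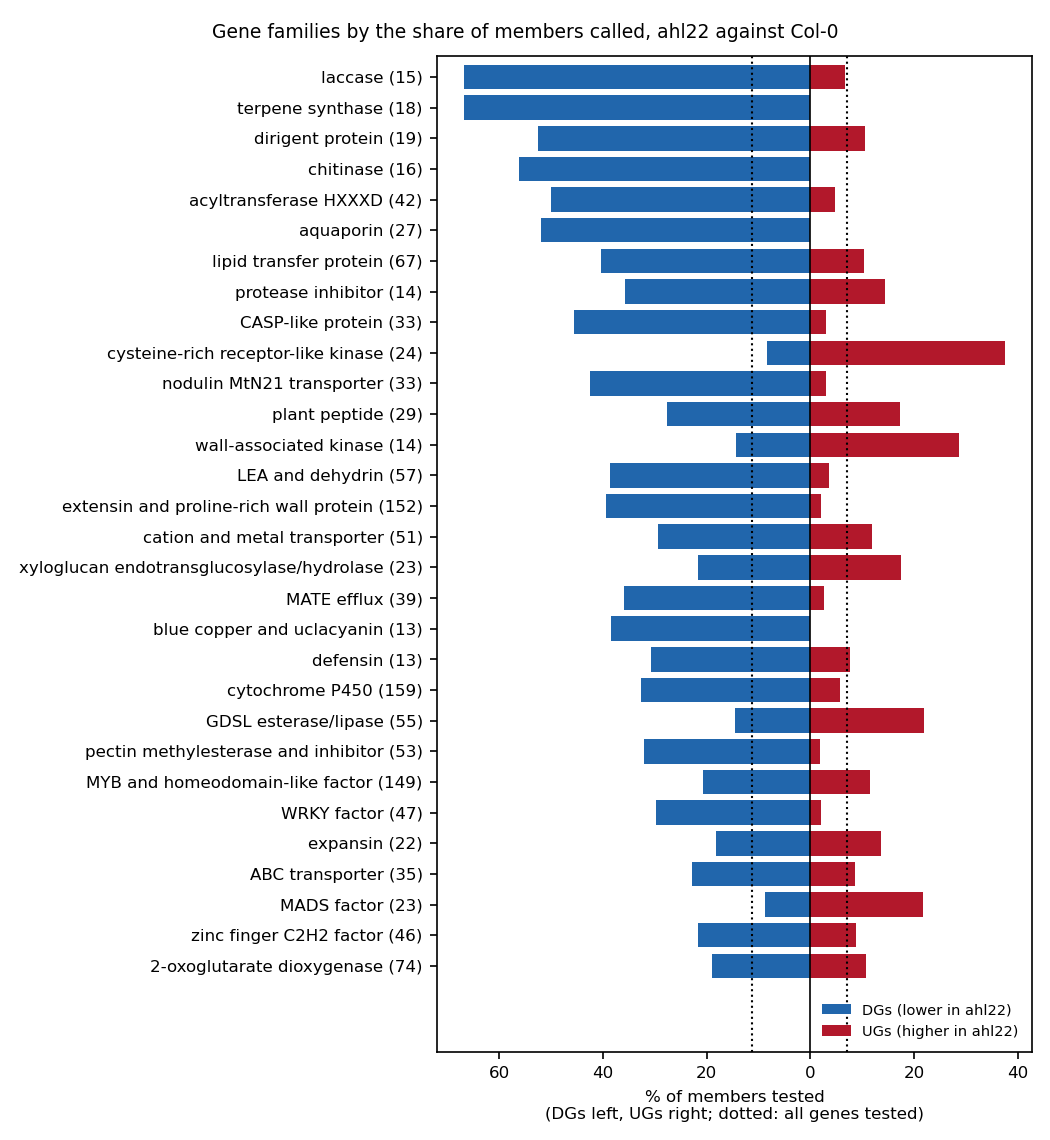
Share of the members tested that were called in *ahl22* against Col-0, for the 30 families with the largest share called among those with at least 10 members tested (number tested in brackets). Bars to the left are DGs and bars to the right are UGs, in % of members tested, and the dotted lines mark 11.2% DGs and 7.07% UGs over all genes tested. Laccases and terpene synthases had the largest share of DGs, and cysteine-rich receptor-like kinases the largest share of UGs.

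Markers of several root cell types and of xylem were lower in *ahl22* than in the Col-0 pair of its table. Some of these markers, such as *TIP2;3*, are also members of lists or families described below. All 7 endodermis markers were DGs, as were 4 of 5 general root markers and 4 of 6 xylem markers. Against the other pair 1 of 7 endodermis markers was a DG, and none of 5 general root and 6 xylem markers was called. The general root markers summed to 1610 and 1631 CPM in *ahl22*, against 3562 and 3755 CPM in Col-0 and 2606 and 1715 CPM in the other pair. The xylem markers summed to 105 and 92.5 CPM in *ahl22*, against 221 and 258 CPM in Col-0 and 140 and 128 CPM in the other pair. Of 8 root hair markers 6 passed the filter on low counts, through the Col-0 libraries alone, so that their 6 calls as DGs follow in part from the filter, and none could be tested against the other pair. The 8 root hair markers summed to 1.32 and 1.24 CPM in *ahl22*, against 16.0 and 21.6 CPM in Col-0 and 1.72 and 0.801 CPM in the other pair. The endodermis markers, led by the Casparian strip proteins, summed to 52.1 and 44.9 CPM in *ahl22*, against 162 and 169 CPM in Col-0 and 78.4 and 43.8 CPM in the other pair. Of 8 root cap and meristem markers 2 passed the filter on low counts, and edgeR called neither (median log2 fold change -0.42). DESeq2, run without that filter, called 2 of the 8 DGs. The 8 markers summed to 53.7 and 51.2 CPM in *ahl22*, against 71.2 and 72.6 CPM in Col-0 and 60.5 and 54.1 CPM in the other pair. The 12 mesophyll markers, photosynthesis genes of green tissue, held 0 UGs and 0 DGs and summed to 85581 and 83125 CPM in *ahl22*, against 102628 and 105131 CPM in Col-0 and 99376 and 96411 CPM in the other pair. Of 8 stomatal lineage markers 3 were UGs, with sums of 76.8 and 78.9 CPM in *ahl22*, against 49.4 and 49.5 CPM in Col-0 and 68.6 and 79.4 CPM in the other pair. In *ahl22* 3 and 2 of the root hair markers had no read, against 0 and 1 in Col-0, and every endodermis marker had reads in every library. The part of root and shoot content in the results below was not tested.

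Many genes of the cell wall were DGs. Of 152 extensins and proline-rich wall proteins, which are structural glycoproteins cross-linked into the wall, 60 were DGs and 3 were UGs, with a median log2 fold change of -0.65. The pair with the largest changes was *AT1G23720* and *AT3G28550*, both annotated as proline-rich extensin-like. *AT1G23720* had 1.76 and 1.04 CPM in *ahl22*, against 192 and 225 CPM in Col-0 (log2 fold change -7.25, edgeR adjusted p = 5.8e-32). *AT3G28550* had 1.76 and 1.31 CPM in *ahl22*, against 182 and 231 CPM in Col-0 (log2 fold change -7.10, edgeR adjusted p = 1.76e-31). Both genes were near 3 CPM in the other pair, at 3.37 and 3.2 CPM for *AT1G23720* and at 3.08 and 2.80 CPM for *AT3G28550*, so that the libraries of that pair lay closer to *ahl22* than to the Col-0 pair of its table. Of 42 arabinogalactan proteins, proteoglycans of the wall and plasma membrane, 12 were DGs and 0 were UGs. *AGP30* had 0.293 and 0.522 CPM in *ahl22*, against 23.2 and 32.7 CPM in Col-0 and 0.645 and 0.134 CPM in the other pair. Pectin methylesterases and their inhibitors, which set the charge of pectin, gave 17 DGs and 1 UG of 53, and the blue copper proteins gave 5 DGs and 0 UGs of 13, led by *UCC2* with 24.7 and 25.6 CPM in *ahl22*, against 198 and 186 CPM in Col-0 and 37 and 25.2 CPM in the other pair. Cellulose synthesis moved less. The 10 primary wall cellulose genes held no call although all 10 had a negative log2 fold change (median -0.45), and 2 of 7 secondary wall genes were DGs. Enzymes and proteins that loosen or remodel the wall were mixed, with 4 UGs and 5 DGs of 23 xyloglucan endotransglucosylase genes (median -0.03) and 3 UGs and 4 DGs of 22 expansins (median -0.06). Tested against the other pair, 129 extensins, 37 arabinogalactan proteins and 12 blue copper proteins held no call, and 44 pectin methylesterase genes held 1 UG and 0 DGs.

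Lignin and phenolic polymers followed the same direction. Laccases oxidise monolignols and other phenolics in the wall, and 10 of 15 were DGs and 1 was a UG, with a median of -1.96. *LAC7* had 3.15 and 3.72 CPM in *ahl22*, against 92.3 and 109 CPM in Col-0 (log2 fold change -4.88, edgeR adjusted p = 4.2e-28), and 5.52 and 3.47 CPM in the other pair. *LAC5* had 0.878 and 0.848 CPM in *ahl22*, against 10.4 and 15.1 CPM in Col-0 and 0.788 and 0.534 CPM in the other pair. Against the other pair edgeR called 0 laccases, also at an unadjusted p under 0.05, and the median was -0.35 over the 12 that were tested. Of 19 dirigent proteins, which guide the coupling of phenolic radicals, 10 were DGs and 2 were UGs. Of the 19 monolignol synthesis genes 5 were DGs and 0 were UGs, among them *PAL4*, which removes ammonia from phenylalanine, with 11.9 and 11.1 CPM in *ahl22* against 55.3 and 54.2 CPM in Col-0 and 18.8 and 16.2 CPM in the other pair (it shares 459 bases at 95.2% identity with *PNP-A*, so some reads are uncertain), and *4CL2*, which makes the CoA ester of coumarate, with 6.22 and 6.13 CPM in *ahl22* against 25 and 28 CPM in Col-0 and 10.8 and 5.21 CPM in the other pair. *UGT72E2*, which puts glucose on monolignols, had 0.512 and 0.522 CPM in *ahl22*, against 29.2 and 36.6 CPM in Col-0 and 1.72 and 0.334 CPM in the other pair. The suberin list had a median of -3.30, with 13 DGs among 14 genes. Its fatty acid hydroxylase *CYP86A1* had 1.68 and 1.04 CPM in *ahl22*, against 52.6 and 48.4 CPM in Col-0 and 4.37 and 1.4 CPM in the other pair. Cuticle and wax synthesis, the counterpart in the shoot epidermis, gave 1 DG and 0 UGs of 14 with a median of 0.11. Tested against the other pair, 19 monolignol genes and 11 suberin genes held no call, and 17 dirigent genes held 1 UG and 0 DGs.

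Several families of specialised metabolism were also richer in DGs than the table as a whole, and aliphatic glucosinolate and flavonoid synthesis were not. Of 17 aliphatic glucosinolate genes 4 were UGs and 0 were DGs (median 0.80), of 10 indole glucosinolate genes 1 was a UG and 3 were DGs, and of 9 flavonoid genes 1 was a UG and 0 were DGs (median 0.28). Against the other pair the aliphatic (17 tested), indole (10) and flavonoid (9) lists held no call. Their medians there were -0.49, -0.13 and -0.15, so the aliphatic and flavonoid medians changed sign. Of 18 terpene synthases 12 were DGs and 0 were UGs (median -1.60). Against the other Col-0 pair 11 of the family could be tested, and 2 of the 12 were DGs there as well. Those 2 are the cineole synthase copies AT3G25820 and AT3G25830, both named *TPS-CIN* and identical over their aligned length, so that reads could not be assigned to 1 of them with certainty. AT3G25820 had 22.4 and 25.5 CPM in *ahl22*, against 133 and 92.8 CPM in Col-0 and 67.1 and 33.7 CPM in the other pair. *PEN1*, a triterpene synthase, had 1.39 and 1.37 CPM in *ahl22*, against 14.9 and 11.7 CPM in Col-0 and 3.22 and 1 CPM in the other pair. Of 42 acyltransferases of the HXXXD type, which transfer acyl groups to alcohols and amines, 21 were DGs and 2 were UGs. The acyltransferase *AT4G15390* had 1.1 and 1.24 CPM in *ahl22*, against 48.8 and 56.0 CPM in Col-0 and 0.860 and 0.935 CPM in the other pair, so that its log2 fold change was -5.49 against the Col-0 pair of its table and 0.38 against the other. Of 159 cytochrome P450 genes 52 were DGs and 9 were UGs, and of 100 UDP-glycosyltransferases 23 were DGs and 6 were UGs. Glutathione S-transferases held 8 DGs and 4 UGs of 43, led by *GSTU22* with 0.659 and 0.783 CPM in *ahl22* against 13.4 and 17.3 CPM in Col-0 and 1 and 1.07 CPM in the other pair. *CYP71A20* had 1 read over both *ahl22* libraries and 115 reads over both Col-0 libraries, a ratio of 130 with a 95% counting interval of 22.9 to 5174 that covers counting error only. In the other pair *CYP71A20* had 0.43 and 0.2 CPM, against 0.0732 and 0 CPM in *ahl22*, too few reads for a test there. Tested against the other pair, 35 acyltransferases and 93 UDP-glycosyltransferases held no call, 136 cytochrome P450 genes held 3 UGs and 1 DG, and 41 glutathione S-transferases held 1 DG.

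Lipid transfer proteins and transporters showed the same tilt with a few members in the other direction. Of 67 lipid transfer proteins, small carriers of lipids in the wall and cuticle, 27 were DGs and 7 were UGs. *AT5G46900* had 0.439 and 0.718 CPM in *ahl22*, against 60.9 and 61.7 CPM in Col-0 and 0.86 and 0.801 CPM in the other pair. *LTP6* went the other way, with 18.5 and 19.1 CPM in *ahl22*, against 1.82 and 2.93 CPM in Col-0 and 15.9 and 23.7 CPM in the other pair. Among carriers of mineral nutrients, 8 of 14 nitrate and ammonium genes and 7 of 15 sulfate genes were DGs and none of either list was a UG. *AMT1;3*, an ammonium uptake carrier, had 1.39 and 1.70 CPM in *ahl22*, against 64.5 and 64.5 CPM in Col-0 (log2 fold change -5.39, edgeR adjusted p = 6.31e-27). *SULTR1;2*, the main sulfate uptake carrier of the root, had 10.6 and 11.0 CPM in *ahl22*, against 134 and 142 CPM in Col-0. *NRT1.5*, which loads nitrate into the xylem, had 28.0 and 24.1 CPM in *ahl22*, against 405 and 441 CPM in Col-0. In the other Col-0 pair *AMT1;3* had 2.15 and 2.14 CPM, *SULTR1;2* had 17.3 and 11.6 CPM and *NRT1.5* had 38.8 and 21.2 CPM, all far nearer to *ahl22* than to the Col-0 pair of its table. Iron deficiency genes gave 11 DGs and 1 UG of 19, aquaporins 14 DGs and 0 UGs of 27 led by *TIP2;3* with 1.1 and 2.35 CPM in *ahl22* against 58.8 and 56.1 CPM in Col-0 and 1 and 1.4 CPM in the other pair, MtN21-type amino acid exporters 14 DGs and 1 UG of 33, and MATE efflux carriers 14 DGs and 1 UG of 39. Some iron genes, *IRT1* among them, passed the filter on low counts through the Col-0 libraries, so the 11 DGs follow in part from it. The phosphate starvation list was mixed, with 5 DGs and 1 UG of 18 and a median of 0.06. Tested against the other pair, 14 nitrate and ammonium genes, 15 sulfate genes, 32 MtN21-type exporters and 37 MATE carriers held no call, 25 aquaporins held 1 DG, 13 iron genes held 1 UG, 62 lipid transfer proteins held 2 DGs and 18 phosphate genes held 2 UGs.

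Chitinases, redox enzymes, WRKY and NAC factors and the AHL family list were also richer in DGs than all genes tested (11.2%). The list of camalexin and salicylate defence held calls in both directions, with 3 DGs and 2 UGs of 13 (median 0.41). Against the other pair that list held 2 UGs and 0 DGs of 11. Of 16 chitinases, which cut the chitin of fungal walls, 9 were DGs and 0 were UGs. The basic chitinase *HCHIB* had 1.90 and 1.04 CPM in *ahl22*, against 28.9 and 31.7 CPM in Col-0 and 3.8 and 1.87 CPM in the other pair. Among redox enzymes other than class III peroxidases 6 of 31 were DGs and 1 was a UG. The DGs include the NADPH oxidase genes *RBOHB* and *RBOHC*, and the rule for named genes takes only genes that were called. *RBOHB* had 0.146 and 0.392 CPM in *ahl22*, against 6.71 and 7.36 CPM in Col-0 and 0.645 and 0.0668 CPM in the other pair, and *RBOHC*, which makes the superoxide of growing root hairs, had 0.220 and 0.457 CPM in *ahl22*, against 5.54 and 2.93 CPM in Col-0 and 0.716 and 0.534 CPM in the other pair. *RBOHB* and *RBOHC* passed the filter on low counts through the Col-0 libraries, and had too few reads for a test against the other pair. Transcription factors of the WRKY family gave 14 DGs and 1 UG of 47, and NAC factors gave 12 DGs and 2 UGs of 52. *WRKY72* had 0.512 and 1.11 CPM in *ahl22*, against 14.2 and 12.0 CPM in Col-0 and 1.15 and 0.668 CPM in the other pair. *NAC046* had 0.878 and 0.718 CPM in *ahl22*, against 7.88 and 5.27 CPM in Col-0 and 2.15 and 0.668 CPM in the other pair. The bZIP factors gave 6 DGs (13%) and 1 UG of 46, near the 11.2% DGs over all genes tested, and no call of 46 against the other pair. Among them *TGA10* had 0.805 and 0.326 CPM in *ahl22*, against 8.02 and 9.54 CPM in Col-0 and 1.29 and 1.07 CPM in the other pair. The AHL family list leaves out *AHL22* itself, and of its 27 genes tested 8 were DGs and 0 were UGs (median -0.64). *AHL19* had 1.02 and 0.587 CPM in *ahl22*, against 19.7 and 15.8 CPM in Col-0 and 2.08 and 0.935 CPM in the other pair. In the test against the other pair, 27 redox genes, 43 WRKY genes and 23 genes of the AHL list held no call. There 14 chitinases held 1 DG and 50 NAC genes held 1 UG.

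**Figure D2:**
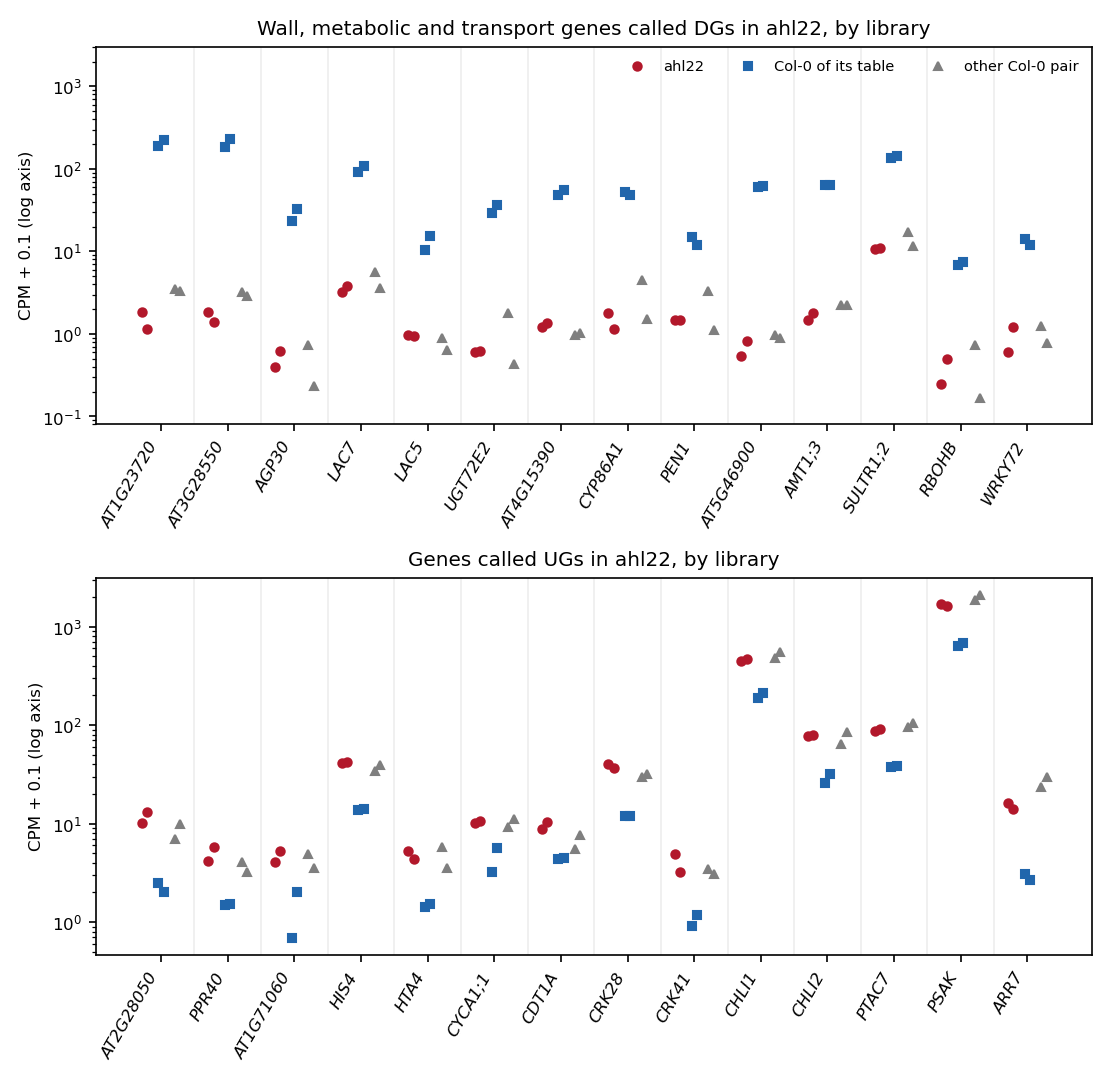
CPM of single libraries for 14 DGs (upper panel) and 14 UGs (lower panel) of *ahl22*, drawn as CPM + 0.1 on a log axis. Circles are the 2 *ahl22* libraries, squares the 2 Col-0 libraries of their table and triangles the other Col-0 pair. The rule for named genes left out any gene whose circles and squares overlap, and in most genes the triangles lie closer to the circles than to the squares.

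Genes of organelle RNA processing were the largest family group among the UGs. Pentatricopeptide repeat (PPR) proteins bind organelle transcripts and take part in their editing, splicing and stability. Of 239 PPR genes tested 58 were UGs and 0 were DGs, and 221 had a positive log2 fold change (median 0.74), against 9816 of 19173 genes overall. A further 283 genes annotated as tetratricopeptide repeat-like held 50 UGs and 6 DGs (median 0.44). *AT2G28050* had 9.95 and 13.1 CPM in *ahl22*, against 2.41 and 1.92 CPM in Col-0 and 6.88 and 9.88 CPM in the other pair (log2 fold change 2.38, edgeR adjusted p = 1.65e-10). *PPR40*, a mitochondrial member, had 4.1 and 5.68 CPM in *ahl22*, against 1.39 and 1.42 CPM in Col-0 and 3.94 and 3.14 CPM in the other pair. *AT1G71060*, annotated as tetratricopeptide repeat-like, had 3.95 and 5.22 CPM in *ahl22*, against 0.583 and 1.92 CPM in Col-0 and 4.8 and 3.41 CPM in the other pair. Against the other Col-0 pair edgeR called 0 of 240 PPR genes, with 4 above a log2 fold change of 1 at an unadjusted p under 0.05, and the median was 0.14.

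Histone genes were richer in UGs than the table as a whole, whereas few cell cycle genes were called. Of 40 histone genes 10 (25%) were UGs and 1 was a DG (median 0.66), against 7.07% UGs over all genes tested. *HIS4*, a histone H4 gene, had 40.7 and 42.5 CPM in *ahl22*, against 13.6 and 13.8 CPM in Col-0 and 33.8 and 39.5 CPM in the other pair. *HTA4*, a histone H2A gene, had 5.12 and 4.31 CPM in *ahl22*, against 1.31 and 1.42 CPM in Col-0 and 5.66 and 3.41 CPM in the other pair. Of 31 cell cycle genes 3 were UGs and 24 had a positive log2 fold change (median 0.53), and of 14 DNA replication licensing genes 2 were UGs (median 0.80). *CYCA1;1*, an S and M phase cyclin, had 10.1 and 10.5 CPM in *ahl22*, against 3.14 and 5.52 CPM in Col-0 and 9.17 and 10.9 CPM in the other pair, and *CDT1A*, a replication licensing factor, had 8.64 and 10.3 CPM in *ahl22*, against 4.3 and 4.35 CPM in Col-0 and 5.37 and 7.54 CPM in the other pair. The 8 dividing cell markers held no call, with sums of 90.3 and 104 CPM in *ahl22*, against 74.7 and 79.0 CPM in Col-0 and 83.7 and 97.4 CPM in the other pair. None of 40 histone genes and 30 cell cycle genes was called against the other pair.

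Nuclear genes of the chloroplast held few calls. Of 41 photosystem and antenna genes 2 were UGs (4.88%, against 7.07% over all genes tested, median 0.01), and none of 18 Calvin cycle genes was called by edgeR at the thresholds used. *PSAK*, a subunit of photosystem I, was 1 of the 2, with 1680 and 1615 CPM in *ahl22*, against 640 and 680 CPM in Col-0 and 1859 and 2085 CPM in the other pair. Both subunit I genes of magnesium chelatase, the enzyme that commits protoporphyrin to chlorophyll, were the 2 UGs (13.3%) among 15 chlorophyll synthesis genes. *CHLI1* had 449 and 463 CPM in *ahl22*, against 189 and 213 CPM in Col-0 and 482 and 555 CPM in the other pair, and *CHLI2* had 76.7 and 79.0 CPM in *ahl22*, against 25.5 and 31.7 CPM in Col-0 and 64.6 and 85.7 CPM in the other pair. In the plastid transcription list, which was added after the values were seen, 2 of 13 genes were UGs (15.4%) and 1 was a DG, and *PTAC7* had 87.2 and 91.6 CPM in *ahl22*, against 37.6 and 38.4 CPM in Col-0 and 95.9 and 104 CPM in the other pair. No gene of the photosystem, chlorophyll or plastid transcription list was called against the other pair.

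Receptor kinases and signalling peptides moved in both directions. Cysteine-rich receptor-like kinases gave 9 UGs and 2 DGs of 24 (median 0.72), and no call of 24 against the other pair. *CRK28* had 40.4 and 36.7 CPM in *ahl22*, against 11.8 and 11.7 CPM in Col-0 and 29.4 and 32.1 CPM in the other pair, and *CRK41* had 4.83 and 3.13 CPM in *ahl22*, against 0.802 and 1.09 CPM in Col-0 and 3.37 and 3 CPM in the other pair. *CRK25*, 1 of the 2 DGs, had 0.293 and 0.653 CPM in *ahl22*, against 10.5 and 9.12 CPM in Col-0 and 1.22 and 0.601 CPM in the other pair. Among 29 genes annotated as plant peptides 5 were UGs and 8 were DGs, and *PSK3*, a phytosulfokine precursor, had 21.2 and 21.4 CPM in *ahl22*, against 6.42 and 4.27 CPM in Col-0 and 21.9 and 18.4 CPM in the other pair. *CLE2*, which encodes a peptide of the CLAVATA3 family, had 2 reads over both *ahl22* libraries and 239 reads over both Col-0 libraries, a ratio of 135 with a 95% counting interval of 37.0 to 1121. In the other pair *CLE2* had 0.0716 and 0.0668 CPM, against 0.0732 and 0.0653 CPM in *ahl22*, too few reads for a test there. Thioredoxins and glutaredoxins gave 15 UGs and 5 DGs of 102, with *AT4G15700* at 12.1 and 12.5 CPM in *ahl22* against 2.77 and 2.84 CPM in Col-0 and 13.3 and 11.1 CPM in the other pair, and *AT4G15670* at 6.00 and 5.87 CPM in *ahl22* against 1.17 and 1.51 CPM in Col-0 and 3.87 and 4.54 CPM in the other pair. GDSL esterases gave 12 UGs and 8 DGs of 55, and resistance proteins of the NBS-LRR type gave 16 UGs and 5 DGs of 99.

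Most hormone lists held calls in both directions. Abscisic acid turnover and response gave 6 DGs and 0 UGs of 21, among them *HAI1*, a phosphatase that is itself induced by the hormone, with 1.1 and 1.83 CPM in *ahl22* against 7.37 and 6.19 CPM in Col-0 and 4.66 and 1.14 CPM in the other pair. The jasmonate list gave 6 DGs and 2 UGs of 20, with the vegetative storage protein *VSP1* at 1.1 and 1.24 CPM in *ahl22* against 6.49 and 7.28 CPM in Col-0 and 2.94 and 1.54 CPM in the other pair. Gibberellin genes gave 4 DGs and 2 UGs of 18, and *GA3OX1*, which makes the active hormone, had 1.17 and 1.04 CPM in *ahl22*, against 6.20 and 5.35 CPM in Col-0 and 2.08 and 2.27 CPM in the other pair. Brassinosteroid genes gave 3 DGs and 1 UG of 15, and ethylene genes 1 DG and 1 UG of 21. A list of Aux/IAA genes gave 5 UGs (20%) and 0 DGs of 25 (median 0.37). The list of auxin synthesis, conjugation and transport gave 4 DGs (14.3%) and 2 UGs (7.14%) of 28, near the 11.2% DGs and 7.07% UGs over all genes tested. Its root efflux carrier *PIN2* had 3.29 and 2.61 CPM in *ahl22*, against 23.0 and 26.1 CPM in Col-0 and 1.79 and 2.54 CPM in the other pair, and the amide synthetase gene *DFL2* had 57.7 and 62.9 CPM in *ahl22*, against 16.8 and 16.9 CPM in Col-0 and 29.9 and 35.3 CPM in the other pair. The cytokinin list gave 2 DGs and 3 UGs of 22. Its response regulator *ARR7* had 16.1 and 14.1 CPM in *ahl22*, against 2.99 and 2.59 CPM in Col-0, but 23.6 and 29.4 CPM in the other pair, so that *ahl22* lay above 1 pair and below the other. Tested against the other pair, the gibberellin and brassinosteroid lists and the list of auxin synthesis, conjugation and transport held no call. There the Aux/IAA list held 1 UG of 25, the abscisic acid list 1 UG of 20, the jasmonate list 1 DG of 20 and the cytokinin list 1 DG of 22.

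**Figure D3:**
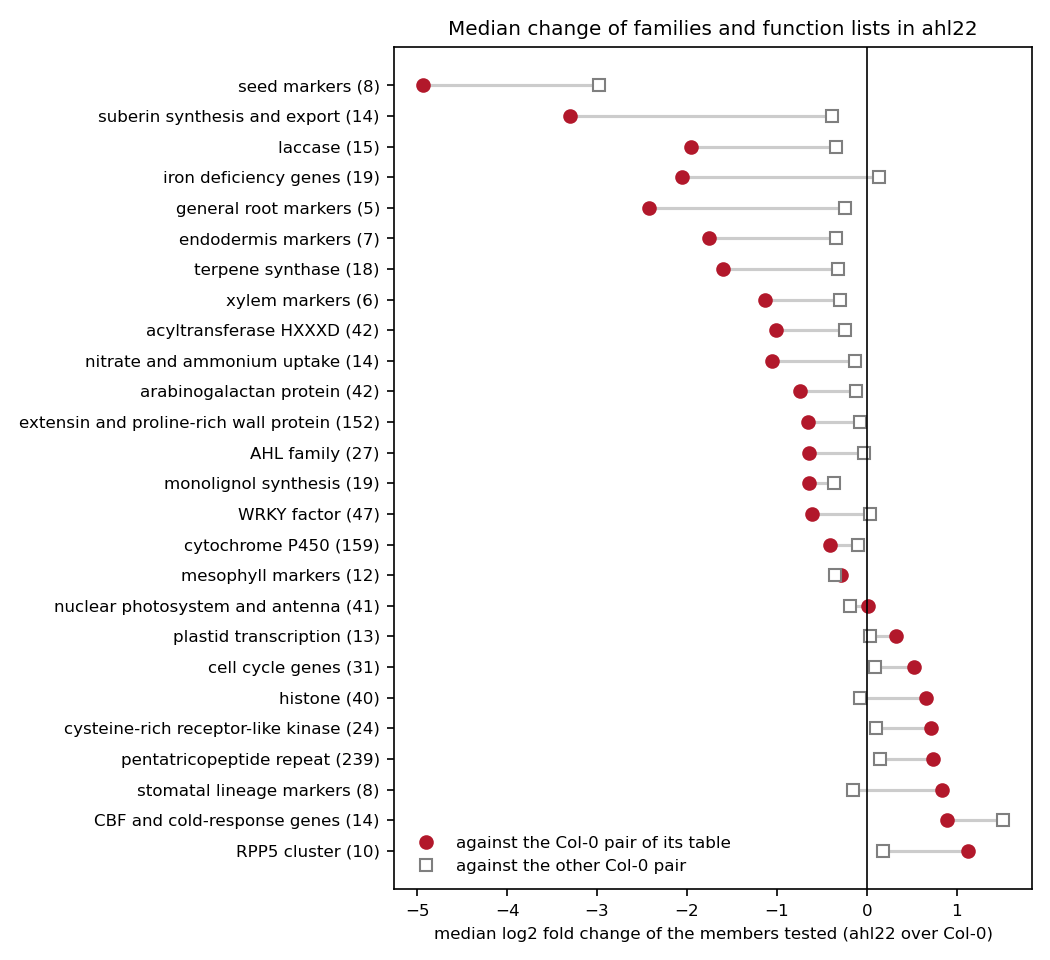
Median log2 fold change (*ahl22* over Col-0) of 26 families and function lists, with the number of members tested in brackets. Filled circles are medians against the Col-0 pair in the same table and open squares are medians over the members that could be tested against the other Col-0 pair, and genes with no read in 1 group enter at their bound. The suberin list stands at -3.30 against the Col-0 pair of its table and at -0.39 against the other, whereas the seed markers stand at -4.93 and -2.98 and the cold-response list at 0.89 and 1.51.

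Of the 3497 calls, 71 had the same direction against both Col-0 pairs. These genes are described next, and the 2 comparisons share the *ahl22* libraries. Seed storage genes had the largest fold changes among them. Of 10 seed markers 8 passed the filter on low counts and were DGs, and 6 were tested and were DGs against the other pair. They passed the filter through the Col-0 libraries, where they are high, so these counts follow in part from the filter. The cruciferin gene *CRU3* had no read in either *ahl22* library, against 29.5 and 25.7 CPM in Col-0 and 2.87 and 3.2 CPM in the other pair, and it was at least 133-fold lower in *ahl22* than in Col-0, counting 3 reads per library as the floor. Against the other pair that bound was 14.6-fold. *CRU1*, another cruciferin, had 0.0732 and 0.522 CPM in *ahl22*, against 21.1 and 20.9 CPM in Col-0 and 2.58 and 2.60 CPM in the other pair. The 2S albumin genes *SESA1*, *SESA2*, *SESA3* and *SESA5* had no read in *ahl22* either, against 3.57 to 8.53 CPM in Col-0, and were at least 22.3-fold, 34.4-fold, 26.4-fold and 27.0-fold lower.

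The promoters of these storage genes are shown for a sequence feature known for their class. The share of matches among them follows from the choice of the list and is not a result of the comparison. Seed storage promoters are known for the RY element, a site for B3 domain factors of seed maturation. The letters CATGCA, on either strand, were found in the 250 bases before the annotated start in 8 of 8 seed marker genes (100%), against 8.87% of UGs, 10.2% of DGs and 7.49% of 18979 genes tested with a promoter in the RefSeq table (TAIR10.1). The 150 bases just before the start are given 5′ to 3′ with matches in capitals, where overlapping matches run together. *CRU1* had 0 matches in those 150 bases, and its match lies farther from the start.
*SESA1* (chr4:13607179-13607328, plus strand): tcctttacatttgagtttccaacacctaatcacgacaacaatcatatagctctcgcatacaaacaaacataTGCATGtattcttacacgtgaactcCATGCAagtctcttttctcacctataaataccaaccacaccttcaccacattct
*SESA2* (chr4:13609191-13609340, plus strand): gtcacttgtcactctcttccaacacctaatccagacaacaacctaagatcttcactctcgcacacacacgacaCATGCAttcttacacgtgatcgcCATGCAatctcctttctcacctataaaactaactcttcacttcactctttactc
*SESA3* (chr4:13611646-13611795, plus strand): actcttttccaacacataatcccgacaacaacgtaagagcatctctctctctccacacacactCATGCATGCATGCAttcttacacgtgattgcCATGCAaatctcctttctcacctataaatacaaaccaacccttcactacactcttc
*SESA5* (chr5:22239188-22239337, minus strand): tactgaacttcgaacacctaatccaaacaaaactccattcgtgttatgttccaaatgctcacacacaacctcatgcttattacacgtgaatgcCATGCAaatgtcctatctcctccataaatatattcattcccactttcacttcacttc
*CRU3* (chr4:14087406-14087555, plus strand): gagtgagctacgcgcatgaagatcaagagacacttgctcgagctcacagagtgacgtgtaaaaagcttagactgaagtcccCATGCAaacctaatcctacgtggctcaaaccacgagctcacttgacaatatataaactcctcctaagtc
A match is a run of letters and does not show that a factor binds there.

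Genes of seed reserve use were tested as a list that was added after the values were seen. Of 15 genes 4 were DGs and 14 had a negative log2 fold change (median -0.61), and 1 was a DG against the other pair. That gene is *ICL*, the isocitrate lyase of the glyoxylate cycle, with 5.34 and 3.13 CPM in *ahl22*, against 28.4 and 26.7 CPM in Col-0 and 28.3 and 38.7 CPM in the other pair (log2 fold change -2.74 and -3.00, edgeR adjusted p = 3.68e-16 and 6.04e-06). The 4 Col-0 libraries all lay above both *ahl22* libraries. *PCK1*, the carboxykinase that feeds sugar synthesis from stored oil, had 317 and 307 CPM in *ahl22*, against 454 and 485 CPM in Col-0 and 242 and 278 CPM in the other pair. *GolS1*, a galactinol synthase of the raffinose pathway that was named after its values were seen, had 4.25 and 3.92 CPM in *ahl22*, against 18.8 and 23.9 CPM in Col-0 and 19.3 and 10.5 CPM in the other pair. *MLS*, the malate synthase of the same cycle, had 5.78 and 6.66 CPM in *ahl22*, against 12.3 and 14.6 CPM in Col-0 and 8.88 and 13.9 CPM in the other pair, where it was not called (log2 fold change -0.87).

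The BTB and TAZ domain genes, scaffold proteins whose expression follows sugar and nitrogen supply, gave 3 DGs and 0 UGs of 5 against the Col-0 pair of its table and 3 DGs and 1 UG (*BT4*) of 5 against the other, in a list that was also added after the values were seen. *BT2* had 54.0 and 49.7 CPM in *ahl22*, against 300 and 322 CPM in Col-0 and 115 and 111 CPM in the other pair (log2 fold change -2.60 and -1.13, edgeR adjusted p = 7.84e-27 and 6.69e-06). *BT1* had 33.0 and 33.4 CPM in *ahl22*, against 180 and 201 CPM in Col-0 and 63.3 and 74.3 CPM in the other pair. *BT5* had 10.8 and 11.2 CPM in *ahl22*, against 46.7 and 49.6 CPM in Col-0 and 26.1 and 20.2 CPM in the other pair. All 3 genes were lowest in *ahl22*, with no overlap between the 3 pairs.

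Cold-response genes were richer in UGs than the table as a whole, with 6 UGs and 1 DG of 14 against the Col-0 pair of its table and 7 UGs and 0 DGs of 14 against the other. *DREB1A*, a transcription factor of cold acclimation also called CBF3, had 11.7 and 12.1 CPM in *ahl22*, against 0.438 and 0.251 CPM in Col-0 and 1.43 and 2.2 CPM in the other pair. *CBF2* had 22.9 and 23.8 CPM in *ahl22*, against 4.74 and 3.93 CPM in Col-0 and 5.02 and 4.67 CPM in the other pair. *COR15B*, a chloroplast protein induced by cold, had 5.05 and 4.05 CPM in *ahl22*, against 1.31 and 2.76 CPM in Col-0 and 0.573 and 0.200 CPM in the other pair. In all 3 genes the *ahl22* libraries lay above the 4 Col-0 libraries. The CBF genes follow the circadian clock, and the 9 evening clock genes summed to 198 and 198 CPM in *ahl22*, against 299 and 337 CPM in Col-0 and 108 and 104 CPM in the other pair. The part of sampling time in the result was not tested.

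Among genes of nutrient supply, *SPX1*, an inhibitor of phosphate starvation signalling, had 45.4 and 45.3 CPM in *ahl22*, against 11.4 and 9.45 CPM in Col-0 and 11.2 and 14.2 CPM in the other pair (log2 fold change 2.09 and 1.83, edgeR adjusted p = 3.42e-17 and 4.91e-06). *HAK5*, the high-affinity potassium uptake carrier, had 2.93 and 2.54 CPM in *ahl22*, against 0.0729 and 0 CPM in Col-0 and 0.287 and 0.134 CPM in the other pair, and it was chosen after its values were seen. At the *RPP5* resistance gene cluster on chromosome 4, a list added after the values were seen, 6 of 10 genes were UGs, against 7.07% of all genes tested, and 2 had a negative log2 fold change (median 1.13). Against the other pair 4 of 10 were UGs (median 0.18). *AT4G16940* had 46.3 and 43.1 CPM in *ahl22*, against 3.21 and 3.1 CPM in Col-0 and 3.01 and 3.47 CPM in the other pair. Its sequence shares 526 bases at 97.7% identity with *RPP4*, so that some of its reads are uncertain. The kinase gene *AT4G16970* at the same cluster had 71.9 and 74.6 CPM in *ahl22*, against 6.34 and 5.35 CPM in Col-0 and 3.22 and 3.87 CPM in the other pair.

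**Figure D4:**
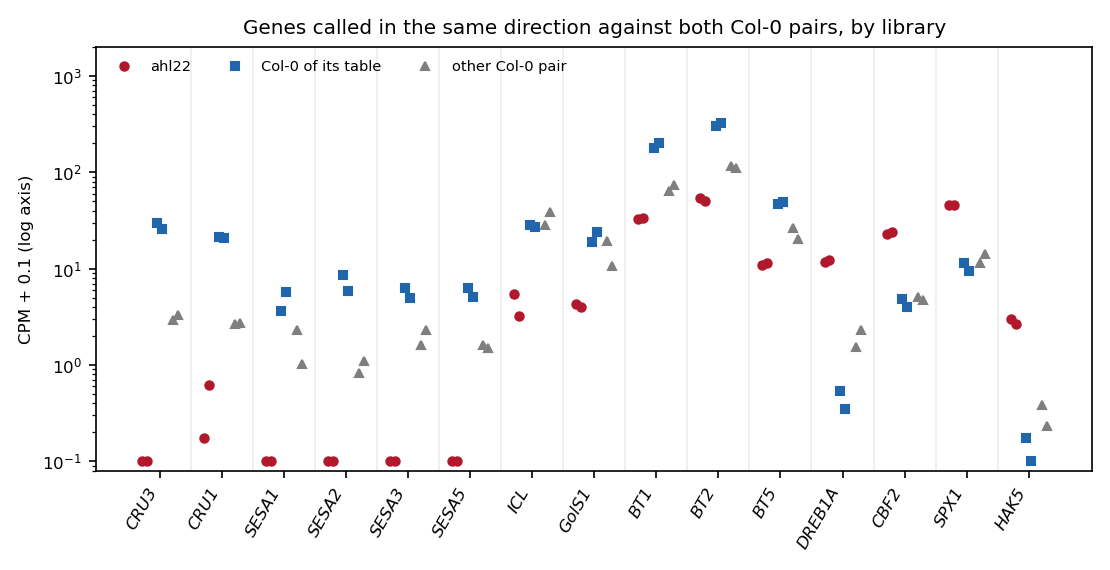
CPM of single libraries for 15 genes called in the same direction against both Col-0 pairs, drawn as CPM + 0.1 on a log axis, so that a gene with no read stands at 0.1. Circles are the 2 *ahl22* libraries, squares the 2 Col-0 libraries of their table and triangles the other Col-0 pair. The circles lie below every square and triangle for the 11 genes on the left and above them for the 4 on the right.

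The other genes with the largest changes were of mixed or unknown function. Among the 10 UGs with the largest log2 fold change, after *DREB1A* and the 2 genes of the *RPP5* cluster, were *AT5G47060* (3.26, a protein of the DUF581 family), *AT3G44450* (3.16, uncharacterised), *LTP6* (2.98), *BBX29* (2.91, a B-box factor), *PP2-A5* (2.67, a phloem lectin), *AT2G46670* (2.61, a CCT motif protein) and *AT2G15020* (2.56, uncharacterised). *AT2G46670* is 99.5% identical to *PRR9* over 874 bases, so its reads are uncertain. None of these 7 genes was a UG against the other Col-0 pair, where their log2 fold changes ran between -0.08 and 1.06. The 10 DGs with the largest change were the 5 storage genes above and *AT5G60530* (a LEA-related protein), *IRT1* (the iron uptake transporter of the root), *AT2G28960* (a leucine-rich repeat kinase), *AT5G23840* (an MD-2-related lipid recognition protein) and *MLP-300B* (a myrosinase-binding protein-like lectin). Each of the last 5 had 1 or 2 reads over both *ahl22* libraries, against 174 to 301 reads over both Col-0 libraries. Each had at most 0.358 CPM in the libraries of the other Col-0 pair, where none of the 5 passed the filter on low counts. Of the genes named here, *DREB1A*, *AT4G16970*, *AT5G47060*, *NRT1.5*, *RBOHB*, *HCHIB*, *AT2G28050*, *AT1G71060*, *HTA4*, *CRK28*, *CRK25*, *CHLI1*, *CHLI2*, *PTAC7*, *DFL2*, *BT5*, *COR15B* and *GolS1* overlap another annotated gene, and since no strand setting of the counting is stated, reads of the overlapping genes cannot be told apart.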

How the data were processed

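Polyadenylated RNA of 5-day-old seedlings was sequenced in paired-end mode, and the authors used HISAT2 for mapping to TAIR10 and Subread for counting reads in genes. The deposited values are whole-number counts per gene and library. Counting options and strand setting are not given in the sources used here, and labels and methods name different library kits. Library totals of the 4 libraries were 12771163 to 14403139. The methods call the 2 replicates per genotype biological.

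The main test was the quasi-likelihood test of edgeR 4.0.16 (R 4.3.3) on the 4 libraries, with TMM normalization, filterByExpr and Benjamini-Hochberg adjustment over 19173 genes. Standard errors were derived from the log2 fold change and the F statistic. CPM were scaled by TMM over these libraries and the other Col-0 pair. That pair stands in the triple mutant table, its counts are not those of the Col-0 columns elsewhere, and it could not be matched to single labelled samples. The filter and test were checked on simulated data.

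Families came from annotation descriptions (RefSeq, TAIR10.1) and 52 function lists from general knowledge, 4 of them added after values were seen. 3 listed gene names found no match. Members and lists were chosen with earlier results of these data known. Named genes were *AHL22*, the 10 UGs and 10 DGs with the largest log2 fold change among genes with at least 50 normalized counts in the higher genotype and no overlap between genotypes, and up to 4 such members per list or family. *RPP4* and *PCK1* were named outside that rule, as were *HAK5* and *GolS1*. Lists are described by counts and medians, without a set test. Intervals of ratios are exact at 95% and cover counting error only. Near-identical copies were searched with blastn 2.17.0 (at least 150 bases and 95% identity).

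Alternatives were DESeq2 1.42.0, RLE and upper-quartile scaling, no filter, at least 10 counts in every library, glmTreat at a 2-fold change, a replicate block, all RNA libraries in 1 fit, either set of Col-0 libraries, and leaving out each replicate. Nuclear matrix DNA libraries were not used here.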

Additional observations from a re-analysis of the deposited data

How the results depend on the processing

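The numbers of UGs and DGs stayed within 1.5 times the main counts under DESeq2 (1035 and 2126), RLE scaling (1292 and 2181), upper-quartile scaling (1770 and 1916), no filter (1392 and 2301), at least 10 counts in every library (1034 and 1444) and 1 fit over all libraries (1271 and 2127). Upper-quartile scaling moved the median of all genes by 0.097 and the share of UGs among the calls to 48%, against 38.7%. The glmTreat test left 296 UGs and 1325 DGs. The other Col-0 pair left 69 and 73, and 4 Col-0 libraries left 5 and 0, where the log2 fold change of *AHL22* was -3.39 (edgeR, adjusted p = 0.502). Leaving out each replicate gave 1273 to 1340 UGs and 1988 to 2254 DGs. A replicate block gave 1322 UGs and 2120 DGs. The labels do not say that a replicate number marks a shared batch, and the deviations of same-numbered libraries correlated at 0.00377 over 19467 genes. Only the other Col-0 pair reversed a named log2 fold change, to -0.0779 for *LTP6*, 0.39 for *LAC5*, 0.38 for *AT4G15390*, -0.18 for *CHLI1*, -0.16 for *PTAC7*, 0.26 for *PCK1*, 0.44 for *PIN2*, -0.81 for *ARR7*, -0.26 for *PSAK*, 0.53 for *TIP2;3* and 0.0761 for *RPP5*. The cause was not tested. Genes under a few CPM rest on few reads, and 2 libraries a genotype give a rough estimate of the spread.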

Other observations

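Transcripts of the organelle genomes were tested with the nuclear ones. Of 85 plastid-encoded genes tested 8 were UGs (9.41%, against 7.07% over all genes tested) and 0 were DGs (median log2 fold change 0.32), and of 33 mitochondrial genes 6 were DGs and 0 were UGs (median -0.73). Against the other pair the medians were -0.21 over 87 plastid genes and -0.12 over 28 mitochondrial genes. Libraries made from polyadenylated RNA capture organelle transcripts incompletely, and the part of capture in these values was not tested.

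Calls were spread over the 5 chromosomes, with UGs at 6.17% to 7.73% and DGs at 10.9% to 11.9% of the genes tested on each. Gene models differed between UGs and DGs. Genes with 1 exon made up 27.3% of 1342 UGs, 20.4% of 2128 DGs and 13.6% of 18979 genes tested, and 57.3% of the 239 PPR genes. In the 250 bases before the start, the letters TATAAA, on either strand, were found in 43.4% of UGs, 55.3% of DGs and 46.0% of all genes tested. The letters TGGGCC, known as the site II element of many genes of dividing cells and organelles, were found in 15.8% of UGs, 5.69% of DGs and 16.7% of all genes tested, and in 22.6% of PPR genes. The median CPM was 5.38 for UGs, 6.27 for DGs and 14.4 for all genes tested, so both kinds of call were drawn from genes with lower counts than the typical gene tested.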
